A study of Mus musculus with 13 samples.

Results

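The BCL2 family members that are not counted among the targets of p53 were followed in mouse ES cells treated with the G-quadruplex (G4) ligand PhenDC3. The members were taken by gene symbol from the RNA-seq count table, and all 10 of them were found once each among its 24079 genes. They are the pro-survival genes Bcl2l1, Bcl2l2 and Mcl1, the effector genes Bak1 and Bok, and the BH3-only genes Bid, Bad, Bik, Bmf and Bcl2l11. CGR8 cells, a feeder-free mouse ES cell line grown with LIF, received 10 μM PhenDC3 or no ligand (control), each with DMSO at 0.5%, and were harvested after 48 h. RNA-seq covers 3 replicates of each condition. SNS-seq, which maps replication origins by sequencing short nascent strands, covers 3 control and 2 PhenDC3 replicates. All samples come from the CGR8 line, and the labels do not say that the RNA-seq replicates were separate cultures, so the p-values measure the spread between these libraries, which may be technical.

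Proteins of the BCL2 family decide whether the outer mitochondrial membrane is opened during apoptosis. Effectors such as BAK form the pores that release cytochrome c, pro-survival members bind and hold back the effectors, and BH3-only members either occupy the pro-survival proteins or activate the effectors directly. ES cells are known to enter this mitochondrial form of cell death readily after DNA damage, and MCL1 and BCL-XL (the product of Bcl2l1) are well known as survival factors of early embryos and of many cell types.

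The RNA-seq libraries held 22232014 to 29486502 counts, and 13972 genes passed the filter on low counts. The values per library below are CPM (counts scaled to the library size) after relative log expression (RLE) normalization, and the tests are edgeR's quasi-likelihood test with Benjamini-Hochberg adjustment over all genes tested, with 0.05 as the highest adjusted p that was called. The ES cell markers summed to between 7702 and 8582 CPM in the controls and to between 9575 and 10680 CPM with PhenDC3, with 5 of 10 higher and 2 lower. The markers of differentiated cells summed to 45.7 to 57.0 CPM and to 82.9 to 94.7 CPM, and 5 of the 10 tested were higher and 1 lower. The fibroblast markers summed to 15.1 to 23.7 CPM and to 25.8 to 28.6 CPM, 1 of the 5 tested was higher and 1 lower, and 2 of the 8 listed (Lum and Dcn) had no count in any library. The part of these shifts in the results below was not tested. In such bulk samples, fewer cells of a type and less RNA per cell cannot be told apart.

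Both effector members, Bak1 and Bok, fell with PhenDC3, 1 of the 3 pro-survival genes rose, and the BH3-only genes went both ways. In total, 2 of the 10 members were higher and 4 were lower, and 4 were not called. All 10 had passed the filter. Among all genes tested, 18.0% were called higher, 18.7% lower and 36.8% in either direction. The PhenDC3 libraries did not overlap the controls in 7 of the 10 members, beside 50.6% of all genes tested. The median log2 fold change of the members was −0.15, beside 0.01 over all genes. The shares of called and of non-overlapping members stand above those of all genes, and nothing particular to the family is read from 10 genes.

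**Figure D1:**
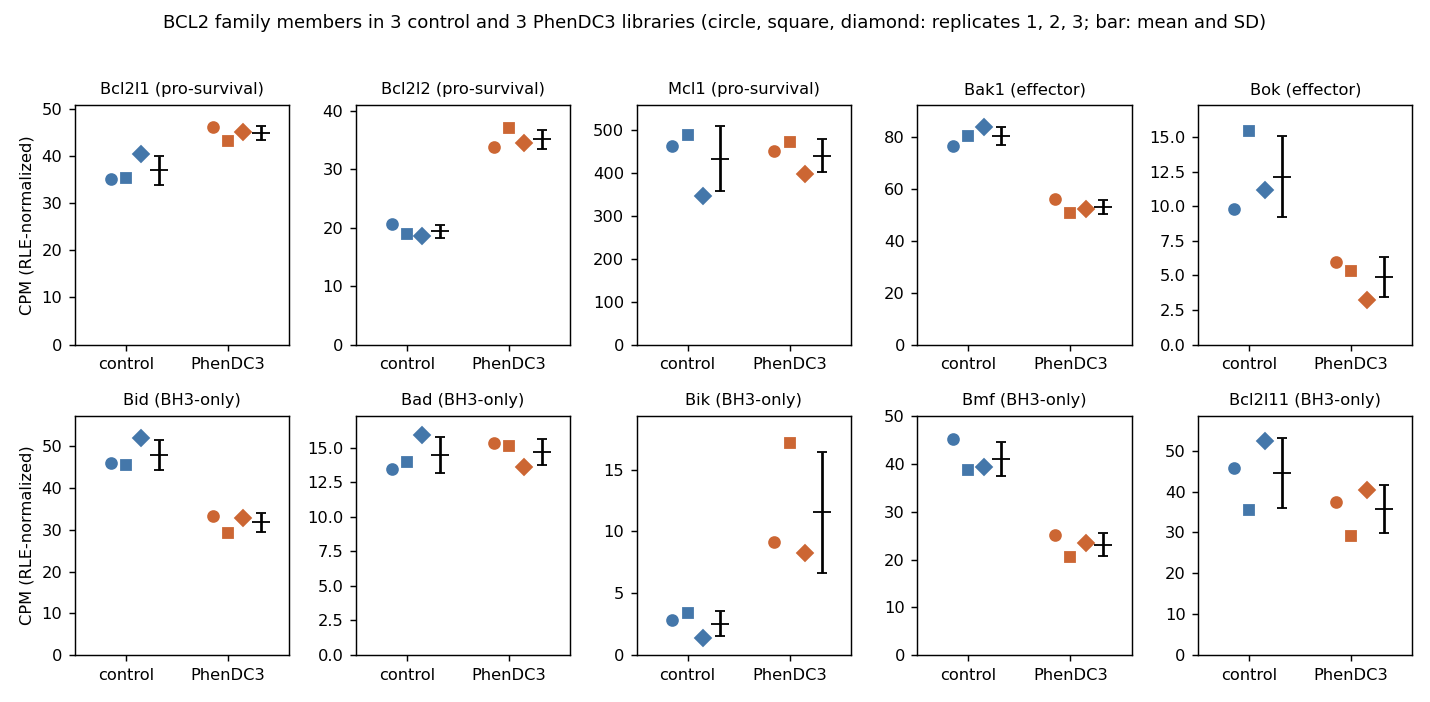
CPM of each of the 10 members (vertical axes, each from 0) in the 3 control and 3 PhenDC3 RNA-seq libraries, with the replicate number given by the marker and the mean and SD of each condition as a bar. The libraries of the conditions do not overlap for Bcl2l1, Bcl2l2, Bak1, Bok, Bid, Bik and Bmf, and overlap for Mcl1, Bad and Bcl2l11.

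Bcl2l2, which encodes the pro-survival protein BCL-W, had the lowest adjusted p of the members. It had 20.7, 18.9 and 18.6 CPM in control replicates 1, 2 and 3, and 33.9, 37.0 and 34.5 CPM in the PhenDC3 replicates. Every PhenDC3 library was above every control, and the mean went from 19.4 ± 1.13 to 35.1 ± 1.65 CPM (SD, n = 3 each). The log2 fold change was 0.86 (SE 0.11, adjusted p = 0.000668), a fold of 1.81. The gene lies on the plus strand at chr14:54883366-54890858 (GRCm38, RefSeq gene record, which can begin before the curated TSS used below). The next gene downstream, Pabpn1, which encodes a poly(A)-binding protein, shares no exon base with it in RefSeq. A read-through model of the GENCODE annotation joins the genes, and the annotation used for the counting is not given. Whether reads of Pabpn1 entered the counts of Bcl2l2 was not tested. Pabpn1 had a mean of 519 CPM in the controls and 603 CPM with PhenDC3 (log2 fold change 0.22, adjusted p = 0.289). In log2 CPM over the 6 libraries, the genes with a mean of at least 1 CPM that tracked Bcl2l2 most closely among 12476 were Ptges (a prostaglandin E synthase, Pearson r = 0.9997), Mau2 (a cohesin loader, r = 0.9991) and Psap (the precursor of the saposins, r = 0.9976). The 6 points are the same libraries for every gene, and the treatment contrast is shared by all of them.

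G4 were predicted in RefSeq promoter sequences (GRCm38), which run from 250 bases before to 50 bases after a transcription start site (TSS). One method was G4Hunter, which averages a score for runs of G (positive) and of C (negative) over windows of 25 bases and was called at an absolute score of 2. The other was Quadparser, which asks for 4 runs of at least 3 G joined by 1 to 7 bases, or for the same pattern of C, so that the strands are both searched. Promoter entries were matched for 9 of the 10 members. Bik had no entry and was not scored. G4Hunter called 3 of the 9 (Bcl2l2 at 2.2, Bcl2l11 at 2.28 and Bid at 2.08), or 33.3%. Counted by gene in the same way, it called 30.4% of the 11044 tested genes with an entry and 20.5% of all 27025 genes with one. Quadparser called Bcl2l2 alone, beside 31.9% of the tested genes and 20.4% of all genes with an entry. At a G4Hunter score of 1.5, the count was 8 of the 9, beside 62.3% of the tested genes. The members thus differed little from other tested genes at the score of 2, and the methods agreed on a single gene.

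Bcl2l2 held 3 separate Quadparser matches, all with the G runs on the strand opposite to the gene. The first and the second of these, which lie before the TSS, are printed on the gene strand to show the runs of C that make up the prediction, with the matched stretch in capitals and the TSS counted as position 0.
Bcl2l2 from −123, chr14:54883282-54883348, plus strand: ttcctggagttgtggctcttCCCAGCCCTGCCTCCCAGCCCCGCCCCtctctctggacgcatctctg
Bcl2l2 from −51, chr14:54883374-54883401, plus strand: CCCTCCCTCCCTGCCCTCCCCTCCTCCC
A predicted G4 is a property of these letters, and its formation in the cells was not measured.

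SNS-seq placed 3 regions of replication initiation within 2 kb of the Bcl2l2 TSS. The peak lists give the fold enrichment of each peak over an RNase-treated library that all lists of a condition share, and an origin was counted where merged peaks came from at least 2 of the 3 control lists or from both PhenDC3 lists. At chr14:54882991-54883366, which holds the first of the printed matches, peaks had fold enrichments of 5.89 and 7.49 in control replicates 1 and 2 and of 10.2 and 7.26 in PhenDC3 replicates 1 and 2. Control replicate 3 had no peak there. At chr14:54883611-54883758, peaks were found in control replicates 1 and 3 (4.67 and 5.86) and in neither PhenDC3 list. At chr14:54885223-54885374, peaks were found in both PhenDC3 lists (6.86 and 7.18) and in no control list. So the same promoter held an origin seen in both conditions, 1 seen in controls only and 1 seen with PhenDC3 only. The lists hold no read counts, there are only 2 PhenDC3 lists, and no test of these differences was made.

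The origin seen with PhenDC3 only is 152 bp long and lies in an intron of Bcl2l2, with its strongest summit 1869 bases after the TSS. Its sequence is printed because it is the only origin of that kind at a member's promoter, with its highest-scoring G4Hunter window in capitals (score 1.68, below the threshold of 2).
Bcl2l2 intron, chr14:54885223-54885374, plus strand: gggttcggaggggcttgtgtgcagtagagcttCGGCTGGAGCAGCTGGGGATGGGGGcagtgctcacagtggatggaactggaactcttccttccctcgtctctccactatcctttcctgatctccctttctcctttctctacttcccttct
The highest score within 500 bp of its centre was 2.92, in a window of an exon that starts 461 bases after the centre, printed whole in capitals.
Bcl2l2 exon, chr14:54885759-54885783, plus strand: TGGGGGGTGGGGGTGGGGAGGTGGG
The G-rich run therefore stood downstream of the origin, on the gene strand. By the same measure, the Bcl2l2 regions at chr14:54882991-54883366 and chr14:54883611-54883758 scored 2.2 each. Origins of the members other than Bik lay on both sides of the threshold of 2, from 1.28 (Mcl1, controls only) to 3.32 (Bmf, controls only). A score above the threshold was thus not particular to the origin seen with PhenDC3 only.

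Bcl2l1, whose main product is BCL-XL, had 35.1, 35.2 and 40.5 CPM in the controls and 46.2, 43.1 and 45.1 CPM with PhenDC3. The groups did not overlap, but the lowest PhenDC3 library exceeded the highest control by a small margin. The log2 fold change was 0.28 (SE 0.11, 95% interval 0.03 to 0.53 without adjustment), and its adjusted p of 0.0746 missed the threshold. With the replicate number as a block, Bcl2l1 was called (0.28, adjusted p = 0.0261), and it was also called without control replicate 3 (0.34, adjusted p = 0.0339). Counts per gene do not separate BCL-XL from the short, pro-apoptotic splice form BCL-XS. The gene lies on the minus strand at chr2:152758732-152833803, with 3 annotated TSS. Near them, 1 origin was seen in all 3 control lists (6.88, 2.66 and 4.78) and in neither PhenDC3 list, 1037 bases after a TSS. Another origin of the controls lay 603 bases after a TSS, with 3.99 for control replicate 1 and 4.68 for control replicate 2. PhenDC3 replicate 2 kept a peak at this second origin (3.92). The peak of PhenDC3 replicate 1 lay outside these origins, at −313 from a TSS (4.27).

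Mcl1, the most abundant member, encodes a short-lived pro-survival protein. It had 464, 489 and 347 CPM in the controls and 451, 473 and 398 CPM with PhenDC3. Control replicate 3 was the lowest and control replicate 2 the highest of all 6 libraries, so the groups overlapped fully. The log2 fold change was 0.02 (SE 0.15, adjusted p = 0.913), with a 95% interval of −0.31 to 0.36. Changes between these bounds cannot be told from none. Around its TSS (the gene spans chr3:95656944-95663179, plus strand), SNS-seq peaks were found in control replicates 1 and 2 only, with highest fold enrichments of 5.08 and 4.83, and in none of the other 3 lists.

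Of the effectors, Bak1 encodes BAK, a pore-forming protein that sits in the mitochondrial outer membrane. It had 76.8, 80.5 and 83.8 CPM in the controls and 56.1, 51.0 and 52.5 CPM with PhenDC3. All PhenDC3 libraries were below all controls, and the replicates of each condition lay close together. Bak1 thus fell by 0.60 on the log2 scale (SE 0.10, adjusted p = 0.00236), to 0.662 of its control level. The gene lies on the minus strand at chr17:27019812-27028627, with exons that share no base with those of Ggnbp1 on the other strand. An origin at −1561 from the TSS had peaks in all 5 lists, at 4.57, 4.30 and 4.38 in the controls and at 9.11 and 6.93 with PhenDC3. A nearer one, at −307, had peaks in all 3 controls (5.67, 4.62 and 3.54) and in PhenDC3 replicate 2 only (4.38).

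Bok encodes a BAX-like effector that is held mainly at the endoplasmic reticulum. It had 9.81, 15.4 and 11.2 CPM in the controls and 6.0, 5.35 and 3.23 CPM with PhenDC3. The groups did not overlap, although the control libraries spread more widely than those of Bak1. Bok fell by 1.32 on the log2 scale (SE 0.26, adjusted p = 0.00468), to 0.401 of its control level, which made it the largest fall among the members. In absolute log2 fold change, 8.98% of all genes tested exceeded Bok. The gene lies at chr1:93685575-93695770 on the plus strand, and the peaks near its TSS came from single lists of each condition (control replicate 1 at 5.10 and PhenDC3 replicate 1 at 6.31), so no origin was counted.

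Among the BH3-only genes, Bik rose most. Its product acts at the endoplasmic reticulum and binds pro-survival members. It had 2.86, 3.37 and 1.38 CPM in the controls and 9.16, 17.1 and 8.28 CPM with PhenDC3. Every PhenDC3 library was above every control, and PhenDC3 replicate 2 stood well above the other two. The mean went from 2.54 ± 1.03 to 11.5 ± 4.89 CPM (SD, n = 3 each), with a log2 fold change of 2.18 (SE 0.37, adjusted p = 0.00233) and a fold of 4.52. Only 2.61% of all genes tested had a larger absolute log2 fold change. Leaving out each library in turn gave log2 fold changes of 1.78 to 2.41. The gene lies at chr15:83526790-83544635 on the plus strand, and its promoter peaks came from control replicate 1 and PhenDC3 replicate 1 only (highest 6.62 and 5.30), so no origin was counted.

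Bmf, whose product is released from the cytoskeleton to bind pro-survival members, had 45.2, 38.8 and 39.4 CPM in the controls and 25.2, 20.4 and 23.6 CPM with PhenDC3. The groups lay far apart relative to their spread. Bmf fell by 0.83 on the log2 scale (SE 0.13, adjusted p = 0.00135), to 0.561 of its control level. Bmf lies at chr2:118528757-118549686 on the minus strand, with 3 annotated TSS. An origin 697 bases after a TSS was seen in all 5 lists (6.05, 4.67 and 4.30 in the controls, 7.46 and 4.70 with PhenDC3), and another, at −691 from a TSS, was seen in all 3 controls (4.18, 3.70 and 3.51) and in neither PhenDC3 list.

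Bid, which is cut by caspase-8 and carries death receptor signals to mitochondria, had 46.1, 45.5 and 52.0 CPM in the controls and 33.3, 29.2 and 32.9 CPM with PhenDC3. All PhenDC3 libraries were below all controls. Bid fell by 0.59 on the log2 scale (SE 0.11, adjusted p = 0.0042), to 0.665 of its control level. The gene lies at chr6:120893119-120917062 on the minus strand. An origin 1420 bases after its TSS was seen in the 3 controls (12.6, 8.36 and 8.05) and in PhenDC3 replicate 2 only (3.57). The strongest G4Hunter window of its promoter, from position −50 to −26, is shown whole in capitals because it is 1 of the 3 called among the members.
Bid, chr6:120916850-120916874, minus strand: GGGCGGGGCTATCACAGGGGCGGGG
Its runs of G lie on the gene strand, and it holds no Quadparser match.

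Bcl2l11 encodes BIM, a BH3-only protein that binds all pro-survival members. It had 45.7, 35.4 and 52.4 CPM in the controls and 37.4, 29.1 and 40.4 CPM with PhenDC3. The groups overlapped, but replicate 2 was the lowest and replicate 3 the highest in each condition, and each PhenDC3 library was below the control of the same number. The log2 fold change was −0.32 (SE 0.17, 95% interval −0.71 to 0.07, adjusted p = 0.177) and was not called. With the replicate number as a block, it was called lower (−0.32, adjusted p = 0.0123). The gene lies at chr2:128126038-128162547 on the plus strand and shares 215 of its 7137 exon bases (3.01%) with Acoxl on the same strand, which rose from a mean of 1.30 to 4.04 CPM (log2 fold change 1.62, adjusted p = 0.00125). Its promoters held the most peaks of the family, with 7, 7 and 3 in the controls and 4 in each PhenDC3 list, and 3 of the origins were seen in both conditions. The strongest of them, 329 bases after a TSS, had fold enrichments of 12.7 and 12.8 in control replicates 1 and 2 and of 5.53 and 6.21 with PhenDC3, and no peak in control replicate 3. The strongest G4Hunter window of its promoters, from position −135 to −111, is shown whole in capitals as the highest score in the promoter sequences of the family.
Bcl2l11, chr2:128125903-128125927, plus strand: GGCCTGGGGGCCGTGGGGGGTGGGG
Its runs of G lie on the gene strand, and no Quadparser match was found in either of its promoters.

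Bad, a BH3-only sensor of growth factor signalling that is controlled by phosphorylation, had 13.4, 14.0 and 15.9 CPM in the controls and 15.3, 15.1 and 13.6 CPM with PhenDC3. The groups overlapped fully. The log2 fold change was 0.02 (SE 0.13, 95% interval −0.28 to 0.32, adjusted p = 0.905). The gene lies at chr19:6941861-6951905 on the plus strand, and 517 of its 1521 exon bases (34.0%) are shared with Gpr137 on the other strand. Gpr137 had a log2 fold change of 0.32 (adjusted p = 0.0769). The libraries were made with a stranded kit, but the strand setting of the counting is not given in the sources used here, so reads of the shared stretch may not be told apart. The promoter peaks of Bad were the strongest of the family in control replicate 1 (highest 14.9), and were found in PhenDC3 replicate 1 (highest 8.70) and not in replicate 2. An origin 1434 bases after a TSS was seen in all 3 controls (4.89, 3.82 and 5.57) and in neither PhenDC3 list. Its other promoter origins had peaks in control replicates 1 and 2 and in PhenDC3 replicate 1.

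**Figure D2:**
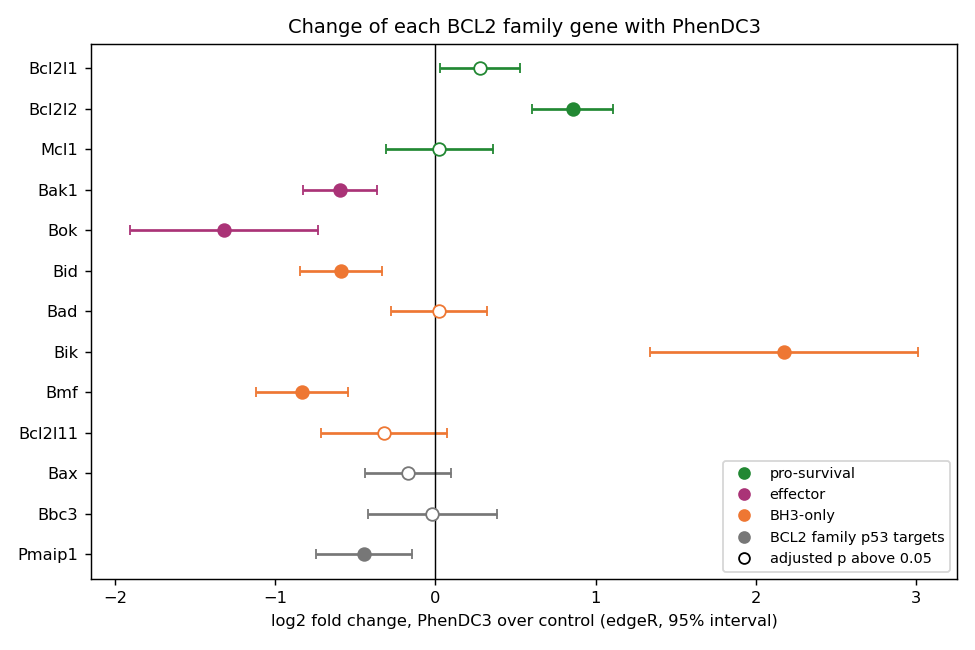
Log2 fold change of PhenDC3 over control (horizontal axis, edgeR, with 95% intervals that are not adjusted for multiple tests) of the 10 members and of the 3 BCL2 family genes among the p53 targets, coloured by class. Filled points have an adjusted p of at most 0.05 and cover Bak1, Bok, Bcl2l2, Bid, Bik, Bmf and Pmaip1.

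Levels were compared between members as CPM per kb of exon, since longer transcripts collect more reads. The lengths are of merged curated RefSeq exons (943 bases for Bik and 7137 for Bcl2l11), and the annotation of the counting is not given. The order of members and the class shares below depend on these lengths. In the controls, Mcl1 (mean 124, range 99.5 to 140) led, followed by Bak1 (39.7), Bid (25.3) and Bcl2l1 (11.3), and the ranges of these neighbours did not overlap. Bad (9.50), Bmf (8.09), Bok (7.79), Bcl2l11 (6.24) and Bcl2l2 (5.60) came next, each overlapping its neighbour in this order, and Bik (2.69) was the lowest. With PhenDC3, the leading 4 were the same, at means of 126, 26.3, 16.8 and 13.8. Bik (12.2), at the foot of the order in the controls, then overlapped Bcl2l1 above it and Bcl2l2 (10.2) below it, and Bad (9.65) followed. Bcl2l11 (4.99) and Bmf (4.54) overlapped each other, and Bok (3.12) was the lowest.

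Summed by class on this scale, the effectors Bak1 and Bok went from 44.2 to 49.7 in the controls to 28.0 to 31.6 with PhenDC3, with no overlap. Bax, the effector that is counted among the p53 targets, is outside this sum and was far more abundant on the same scale, at a mean of 240.1 in the controls and 213 with PhenDC3, with overlapping libraries. The pro-survival sum covered 117 to 157 in the controls and 138 to 159 with PhenDC3, with Mcl1 making up 84.8% to 89.6% and 82.7% to 85.0% of it. The BH3-only sum covered 49.4 to 54.5 and 45.4 to 51.6, which overlap. Within that sum, the share of Bid went from between 47.2% and 50.4% to between 29.9% and 38.3%, and that of Bik from between 2.69% and 7.25% to between 19.3% and 35.2%. So the make-up of the transcripts of these BH3-only members changed while the ranges of their sum overlapped. The BH3-only p53 targets Bbc3 and Pmaip1 are outside this sum. On the same scale, Bbc3 had means of 10.7 in the controls and 10.6 with PhenDC3, and Pmaip1 of 10.8 and 7.97. These sums are of transcripts, and the protein levels were not measured.

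**Figure D3:**
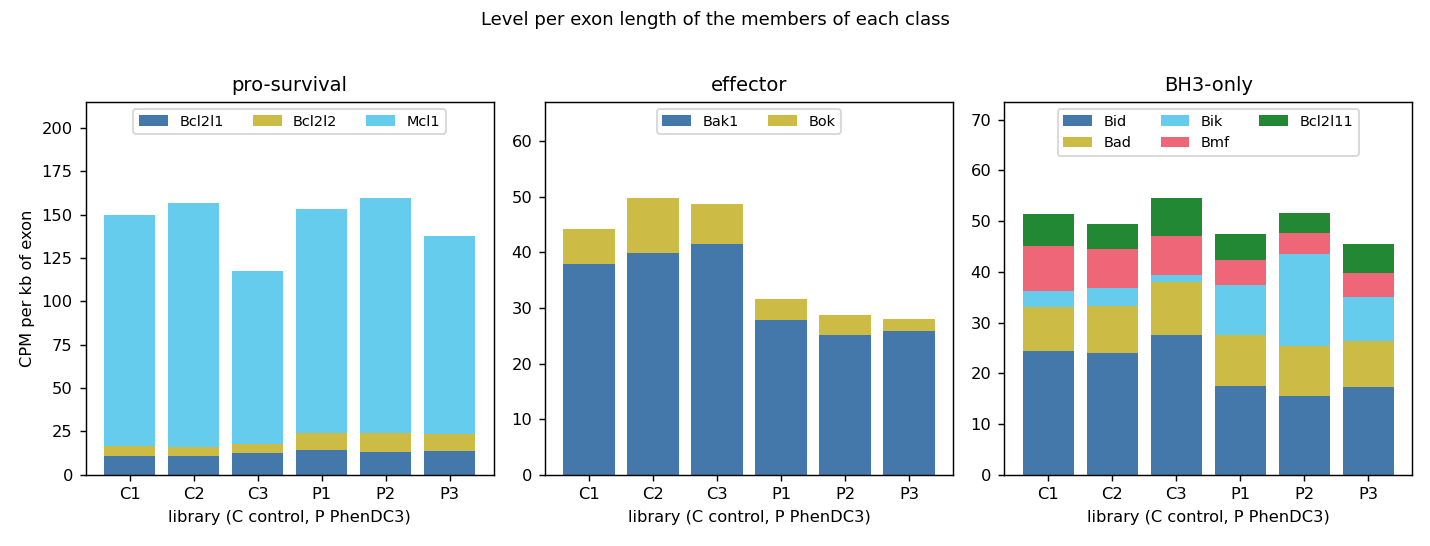
CPM per kb of exon (vertical axes, from 0) of the members, stacked by class, in each control (C1 to C3) and PhenDC3 (P1 to P3) library. Mcl1 fills most of the pro-survival bars, the effector bars are lower in all 3 PhenDC3 libraries, and the Bik segment is wider there.

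The 3 BCL2 family genes that are counted among the p53 targets were compared in the same fit. Bax, the effector partner of Bak1, had 194 to 232 CPM in the controls and 171 to 200 CPM with PhenDC3 (log2 fold change −0.17, adjusted p = 0.288), and the groups overlapped. Bbc3, which encodes the BH3-only protein PUMA, had 20.2 to 34.0 and 26.3 to 28.2 CPM (−0.02, adjusted p = 0.945). Pmaip1, which encodes the MCL1-binding protein NOXA, fell from between 25.1 and 31.2 to between 19.7 and 23.3 CPM (−0.44, adjusted p = 0.0278). None of the 3 was called higher.

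Most other genes of the pathway were not called. Of 53 genes in 6 lists (p53-target BCL2 genes, further BCL2-related genes, apoptosome and caspases, inhibitors of apoptosis, death receptors, and regulators of the members), 45 were tested, 10 were called higher, 5 lower and 30 not, with a median log2 fold change of −0.02. The 15 called of 45 do not exceed the share of 36.8% called over all genes. The count of 15 fell to 9 without control replicate 1 and to 9 without PhenDC3 replicate 1. The calls over all genes fell with them, from 5135 to 4101 and to 3332.

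Of the 13 apoptosome and caspase genes, 1 rose and 1 fell. Apaf1, the scaffold on which cytochrome c activates caspase-9, rose from 37.2, 31.2 and 48.9 CPM to 92.1, 81.5 and 96.4 CPM (1.20, adjusted p = 0.000841), with no overlap. Endog, a mitochondrial nuclease, fell by 0.89 on the log2 scale (adjusted p = 0.0456) and lay at a few CPM in every library. No caspase of the list was called.

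Of the 7 further BCL2-related genes tested, Bcl2l14 rose by 1.15 (adjusted p = 0.0191) and Bnip3, a mitochondrial protein best known in mitophagy, fell from 92.6 to 112 CPM to 41.6 to 58.0 CPM (−1.06, adjusted p = 0.000839). The gene that names the family, Bcl2, is outside the rule for named genes and was added after its values were seen. It lay near the limit of detection, with a mean of 0.511 ± 0.0466 CPM in the controls and 0.529 ± 0.106 CPM with PhenDC3 (SD, n = 3 each, log2 fold change 0.04, adjusted p = 0.933).

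Among the 5 inhibitors of apoptosis, Xiap, a direct inhibitor of caspases, rose by 0.67 (adjusted p = 0.011) and the other 4 were not called. Of the 7 death receptor genes tested, Tnfrsf10b (a TRAIL receptor, 0.45, adjusted p = 0.00814) and Tnfrsf1a (a TNF receptor, 0.77, adjusted p = 0.00867) rose. Cflar, which encodes the caspase-8 antagonist c-FLIP, fell from 1.77, 1.64 and 2.12 CPM to 0.590, 0.460 and 0.726 CPM (−1.62, adjusted p = 0.00324). The symbol Cflar has 2 entries, and these values are of the entry with counts, while the other had 0 in every library. The product of Cflar and the rising receptors act upstream of Bid.

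Of the 10 regulators tested, 5 rose and 1 fell. Btrc, a substrate receptor of a ubiquitin ligase, rose by 0.73 (adjusted p = 0.00243). The dynein light chains that tether BIM and BMF to the cytoskeleton went opposite ways, with Dynll2 going from 170 to 279 CPM in the controls to 387 to 442 CPM with PhenDC3 (0.82, adjusted p = 0.0071) and Dynll1 from 234 to 305 CPM to 199 to 210 CPM (−0.39, adjusted p = 0.0342).

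**Figure D4:**
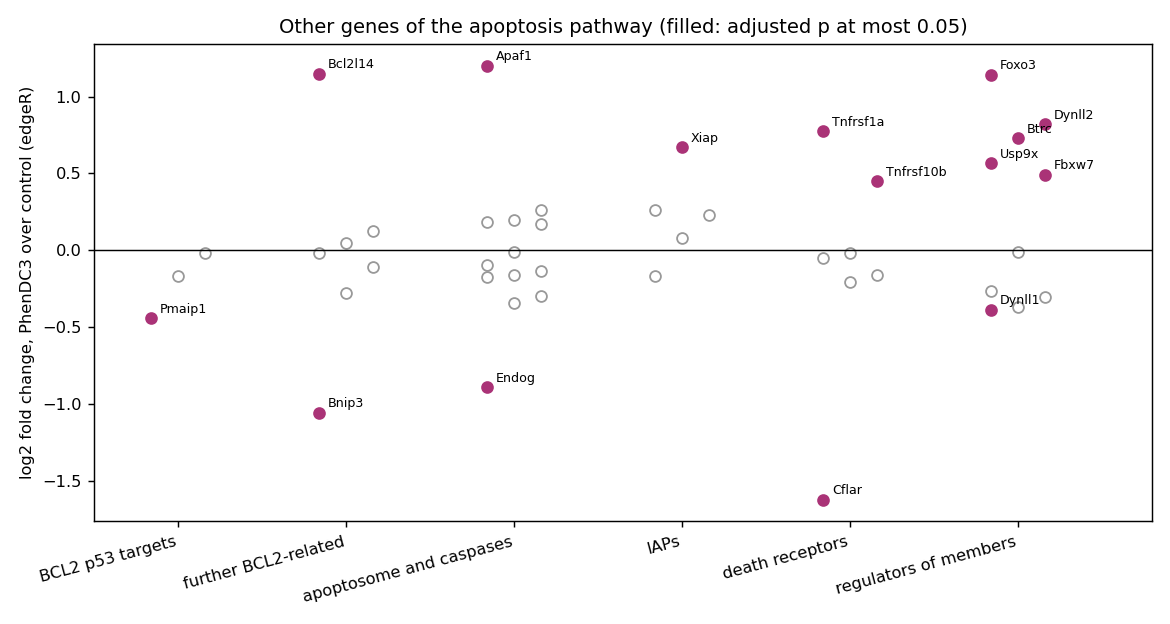
Log2 fold change of PhenDC3 over control (vertical axis, edgeR) of the 45 tested genes in the 6 pathway lists. Filled and named points have an adjusted p of at most 0.05, with 10 above 0 and 5 below.

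Counted over the family, 8 of the 10 members had a promoter origin in the controls (all except Bok and Bik) and 4 with PhenDC3 (Bcl2l2, Bak1, Bmf and Bcl2l11). Among 13949 tested genes with an annotated TSS, 59.6% had one in the controls and 38.0% with PhenDC3. The rule asks for 2 of 3 lists in the controls and for both lists with PhenDC3, so the counts are not on the same footing. Leaving out a PhenDC3 list leaves a rule that asks for a peak in the single list that remains, so that count can only rise. It was 9 without PhenDC3 replicate 2 and 6 without PhenDC3 replicate 1. The control count, still with at least 2 lists, was 6 to 8 when each control list was left out. With peaks above the median −log10 p of their list, the count was 5 in the controls and 3 with PhenDC3.

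Set beside the RNA-seq calls, members with and without origins were found in both directions, with no test made over 10 genes. Of the 4 members with an origin in both conditions, Bcl2l2 was called higher, Bak1 and Bmf lower, and Bcl2l11 was not called. This grouping moved with the setting. With only peaks above the median −log10 p of their list, Bcl2l11 alone had an origin in both conditions. Bcl2l2 and Bak1 then had one with PhenDC3 only, Bmf in neither condition, and Bcl2l1, Mcl1, Bid and Bad in the controls only. Without control replicate 1, Bcl2l2 and Mcl1 had none in the controls. Of the 4 members counted with an origin in the controls only in the main setting, Bid was called lower, and Bcl2l1, Mcl1 and Bad were not called. That count follows the rule, which asks for both PhenDC3 lists at the same region. Bid and Bcl2l1 had peaks near a TSS in each PhenDC3 list, but at different regions, and Bad had peaks in PhenDC3 replicate 1. Of the 4, only Mcl1 had no peak in either PhenDC3 list. Bik, called higher, and Bok, called lower, had peaks in control replicate 1 and PhenDC3 replicate 1 only, and no counted origin in either condition.

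**Figure D5:**
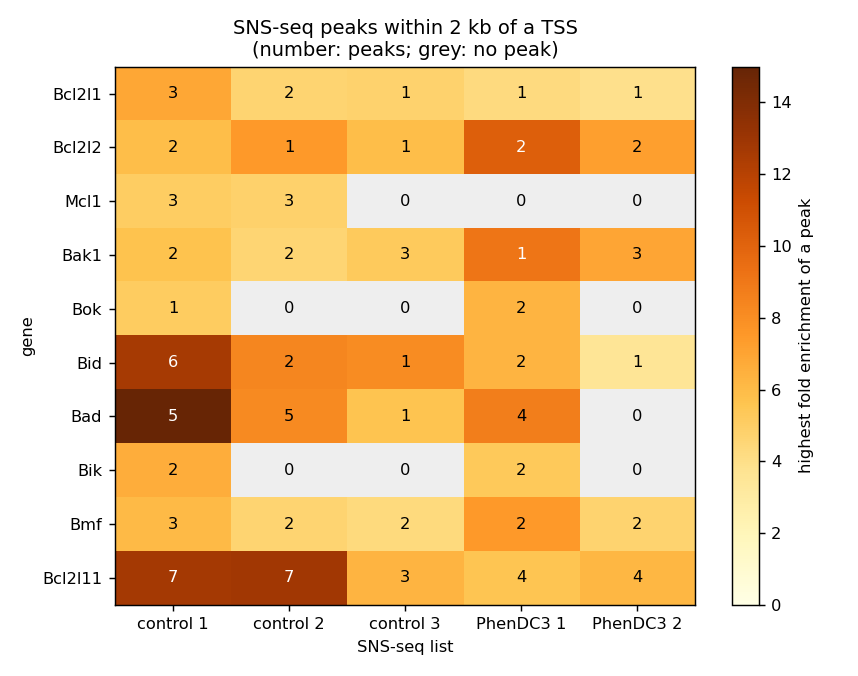
Number of SNS-seq peaks within 2 kb of a TSS (printed in each cell) and the highest fold enrichment among them (colour) for each member in the 3 control and 2 PhenDC3 lists, with grey cells for no peak. Mcl1 has peaks in control replicates 1 and 2 only, and Bok, Bad and Bik have none in PhenDC3 replicate 2.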

How the data were processed

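RNA-seq and SNS-seq of CGR8 ES cells were used (groups by treatment label, 0.5% DMSO or 10 μM PhenDC3, 48 h). The members and gene lists were chosen with earlier results of these data known.

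The authors mapped RNA-seq reads with TopHat2 (version 2.1.1) and Bowtie2 (2.2.9) and counted them on genes with HTSeq (0.6.1p1), and the deposited counts are raw. The build, annotation and strand setting of the counting are not given in the sources used here. For SNS-seq, the authors mapped reads to mm10, called narrow peaks with MACS2 (2.1.0) for every replicate, with 1 RNase-treated library per condition as the reference, and kept peaks within SICER regions. The deposited lists give each peak's ratio to that library as a fold enrichment, and its −log10 p, but no counts, so their depth is unknown. They differ in size, with 120898, 81221 and 79384 peaks in control replicates 1, 2 and 3. PhenDC3 replicates 1 and 2 have 144116 and 102407 peaks, so replicate 1 is the largest list of each condition. The authors' table of normalized counts and their table of fold changes and p-values were not used.

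Counts were tested with edgeR (4.0.16, R 4.3.3; RLE normalization, filterByExpr, robust quasi-likelihood fit, Benjamini-Hochberg adjustment), after the script had been tested on simulated data. CPM per kb used the merged exons of curated RefSeq transcripts of GRCm38, from which TSS and promoter sequences were also taken. Peaks were assigned at an overlap of at least 1 bp with 2 kb on either side of a TSS. Same-numbered libraries deviated together from their group means (r = 0.101, 0.674 and 0.532 over genes, other pairs −0.592 to 0.0938). Deviations from a group mean cancel within the group, so these r values constrain one another. The pair of replicate 1 stood barely above the other pairs. The main fit had no block, and the replicate number served as a block in an alternative only. That pairing is read from the data and not from a statement in the labels. Genes named besides the members are the 3 p53 targets of the family, the 2 called genes with the lowest adjusted p per direction in each further list, and the 3 genes most correlated with the member of lowest adjusted p. The alternatives were TMM, DESeq2 (1.42.0), no filter, a mean CPM of at least 1, the replicate block, each library left out, and for origins and G4 a window of 5 kb, 50% of the peak inside the window, stronger peaks, and the other G4 settings given.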

Additional observations from a re-analysis of the deposited data

How the results depend on the processing

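The 6 called members kept their direction and stayed past the threshold in all 66 combinations of member and alternative (11 each: TMM, DESeq2, no filter, a mean CPM of at least 1, the replicate block and each of 6 libraries left out). With the replicate block, 3 members were higher and 5 lower, and besides Bcl2l1 and Bcl2l11 it changed no call among the members. Over all 13972 genes tested, the same block raised the calls from 5135 to 7489 (3797 higher and 3692 lower). Leaving out each library gave 2 to 3 members higher, 4 lower throughout, 3332 to 5416 calls over all genes and 9 to 17 calls in the pathway lists. Mcl1 and Bad changed sign, with log2 fold changes from −0.12 to 0.11 and from −0.032 to 0.092. Promoter origins were counted in 6 to 8 members for the controls when a list was left out (still at least 2 lists), in 6 to 9 with PhenDC3, where the rule then loosened from both lists to the single list left, and with peaks above the median −log10 p in 5 for the controls and 3 with PhenDC3. Of the 9 members with a promoter entry (all except Bik), a promoter G4 was predicted in 8 at a G4Hunter score of 1.5 and in 1 by Quadparser. The causes of the other changes were not tested. With 3 libraries per condition, changes within the intervals given for Mcl1 and Bad could not be told from none, and the peak lists allow no interval.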
